A study of Mus musculus with 8 samples.

Results

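The genes described here are Nnt and 7 genes that lie near Fgf10 on mouse chromosome 13, namely Paip1, 4833420G17Rik, AF067061, Mrps30, Emb, Parp8 and Isl1. They were chosen by their position and selected on earlier values of the same genotype comparison, in which several of them differed between the groups. For that reason their differences are given as a description with no test. By gene symbol in the platform annotation the 8 genes had 22 array features, all with a value on every array, of 31465 named features in all. Each feature, a printed spot of probe, is kept apart, since features of Nnt and of Paip1 disagree.

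The study profiled whole lungs of 8 newborn mouse pups on 1-colour (Cy3) Agilent arrays. The first group, titled TG, comprised 4 pups labelled Fgf10 +/-, heterozygous for the gene for fibroblast growth factor 10, and the second, titled WT, comprised 4 pups labelled wild-type. Pups of both groups are labelled with the strain background C57Bl/6J and were kept in a chamber with 20% oxygen from postnatal day 0 to day 3. The construct of the Fgf10 allele, the strain from which the DNA around it came, litter, sex and slide are not stated in the labels. Values are log2 signals with the same distribution on every array, and a difference of 1 is a 2-fold change.

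Fgf10 encodes a secreted signal from mesenchyme to epithelium in the growing lung. Nnt, its neighbour, encodes nicotinamide nucleotide transhydrogenase, an enzyme of the inner mitochondrial membrane that uses the proton gradient to make NADPH from NADH. Mitochondrial NADPH keeps glutathione and thioredoxin reduced, and through them peroxides in check. The C57BL/6J strain is known for a deletion inside Nnt that leaves it without the working enzyme, while other C57BL/6 substrains keep the intact gene. Where each Nnt feature lies relative to that deletion is not stated in the annotation used here.

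In chromosome order Isl1, Parp8, Emb and Mrps30 lie on one side of Fgf10, with Mrps30 its next measured neighbour. Nnt, Paip1 and 4833420G17Rik are the next 3 on the other side, and AF067061 is the 14th measured gene on that side. Fgf10 itself was not lower in the lungs labelled Fgf10 +/-. All 10 of its features had a higher mean there, and their average differed by 0.31. Averaged over its 10 features, its log2 signal was 7.29, 7.77, 7.46 and 7.69 in the lungs labelled Fgf10 +/-, against 7.16, 7.35, 7.00 and 7.47 in the wild-type lungs. The values of the groups overlap, and the direction of every difference below therefore rests on the labels.

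Nnt was higher in the lungs labelled Fgf10 +/- on its bright feature, while its other features, of low signal, pointed in opposite directions. Feature 21383, assigned to the transcript NM_008710, had log2 signals of 10.21, 10.26, 10.17 and 10.30 in the lungs labelled Fgf10 +/-. In the wild-type lungs the same feature had 9.62, 9.53, 9.55 and 9.54. Every lung labelled Fgf10 +/- lay above every wild-type lung, and the gap between the groups was many times the spread inside either. The means were 10.24 ± 0.06 in lungs labelled Fgf10 +/- and 9.56 ± 0.04 in wild-type lungs (SD, n = 4 each), which differ by 0.68 on the log2 scale (SE 0.10), or 1.6-fold.

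The other Nnt features had low signals, with means of 3.14 (58427) and 3.89 (33078) over all lungs beside an array median of 3.47. Feature 58427, assigned to the same transcript, had 3.37, 2.95, 4.38 and 3.27 in the lungs labelled Fgf10 +/- against 3.77, 2.61, 2.75 and 2.00 in the wild-type lungs. Feature 33078, assigned to the cDNA AK050478, had 3.78, 4.52, 2.73 and 4.07 in the lungs labelled Fgf10 +/- against 2.70, 4.71, 4.17 and 4.47 in the wild-type lungs. On both the groups overlap, and the differences of 0.71 (SE 0.42) and -0.24 (SE 0.51) are less than 2 standard errors from 0. The 3 features did not follow each other across the 8 arrays: their pairwise Pearson r ran from -0.87 to 0.52, with a median of -0.17. When the 3 were averaged, the Nnt difference was 0.38 (SE 0.11), less than on the bright feature alone.

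**Figure D1:**
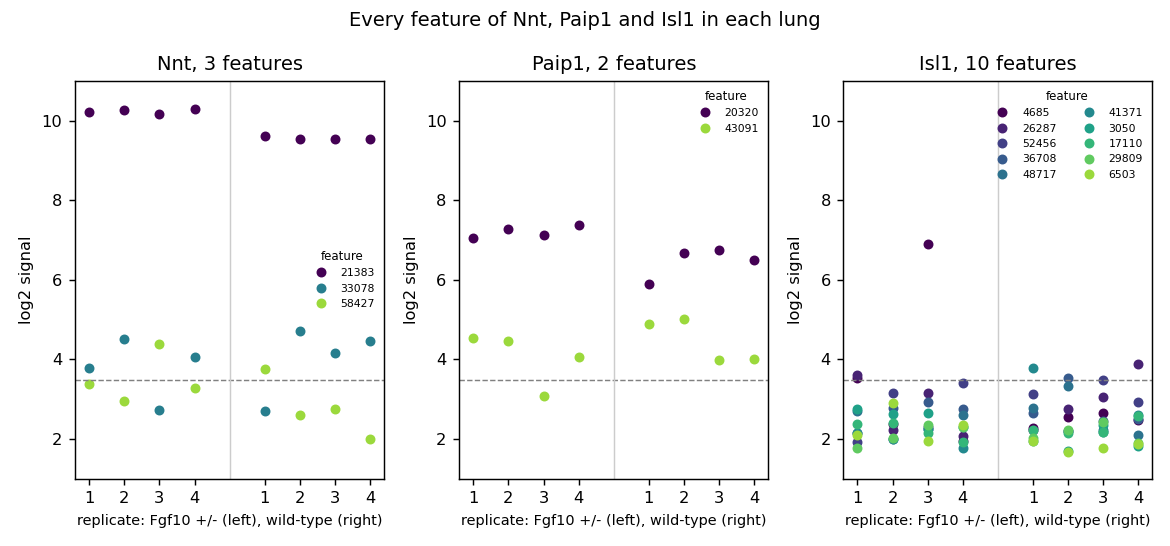
Log2 signal (vertical axis) of every feature of Nnt, Paip1 and Isl1 in each lung, with the lungs labelled Fgf10 +/- left of the wild-type lungs and 1 colour per feature. The dashed line is the array median of 3.47. The bright Nnt feature sits at 10.17 to 10.30 in the lungs labelled Fgf10 +/- and at 9.53 to 9.62 in the wild-type lungs, while its other features scatter around the line. Paip1 feature 43091 lies above the line in all lungs but replicate 3 of those labelled Fgf10 +/-, and the Isl1 features have means below it, with 1 value of 6.89.

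Paip1, which lies beyond Nnt, encodes a protein that binds the poly(A)-binding protein and stimulates translation of capped mRNAs. Its brighter feature 20320 had log2 signals of 7.05, 7.27, 7.12 and 7.38 in the lungs labelled Fgf10 +/-, against 5.90, 6.68, 6.76 and 6.51 in the wild-type lungs. The groups do not overlap, and wild-type replicate 1 was the lowest lung by a wide margin. The log2 difference was 0.74 (SE 0.20), and 0.56 without that lung. The dimmer feature 43091, assigned to the same transcript, had 4.54, 4.46, 3.08 and 4.05 in the lungs labelled Fgf10 +/- and 4.88, 5.02, 3.98 and 4.00 in the wild-type lungs. It leaned the other way, with overlapping groups and a difference of -0.43 (SE 0.38). The r between both features was -0.43 over 8 arrays, and their average differed by 0.15 (SE 0.21).

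4833420G17Rik, a protein-coding gene for which no role is given here, lies beyond Paip1 and was lower in the lungs labelled Fgf10 +/-. Its brighter feature 13406 had log2 signals of 9.48, 9.32, 9.36 and 9.54 in the lungs labelled Fgf10 +/-, against 10.28, 10.27, 10.03 and 10.22 in the wild-type lungs. The groups do not overlap, and the log2 difference was -0.78 (SE 0.11), or 0.584-fold. The dimmer feature 39685 pointed the same way, with 5.86, 6.55, 5.99 and 6.34 in the lungs labelled Fgf10 +/- and 6.47, 6.99, 6.67 and 6.36 in the wild-type lungs. There the groups overlap and the difference was -0.44 (SE 0.20). The r between its features was 0.61.

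Emb encodes embigin, a membrane glycoprotein of the immunoglobulin family that accompanies monocarboxylate transporters to the cell surface. Its single feature 50022 had log2 signals of 8.72, 8.27, 8.48 and 8.20 in the lungs labelled Fgf10 +/-, against 9.21, 9.13, 9.24 and 9.29 in the wild-type lungs. All 4 lungs labelled Fgf10 +/- were lower than all 4 wild-type lungs, and they also varied more, with an SD of 0.23 against an SD of 0.06 in the wild-type lungs. The log2 difference was -0.80 (SE 0.14), or 0.572-fold.

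Mrps30 and Parp8 lie among these genes and showed no such gap. Mrps30, which encodes a protein of the mitochondrial ribosome, had 8.95, 8.88, 9.10 and 8.93 in the lungs labelled Fgf10 +/- and 8.99, 9.04, 8.88 and 9.04 in the wild-type lungs. Its difference was -0.02 (SE 0.10). Parp8, a member of the family of enzymes that attach ADP-ribose to proteins, had 7.48, 7.19, 7.22 and 7.54 in the lungs labelled Fgf10 +/- and 7.30, 7.17, 7.26 and 7.43 in the wild-type lungs. Its difference was 0.07 (SE 0.13). For both genes the groups overlap, although Mrps30 lies between Emb and Fgf10.

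**Figure D2:**
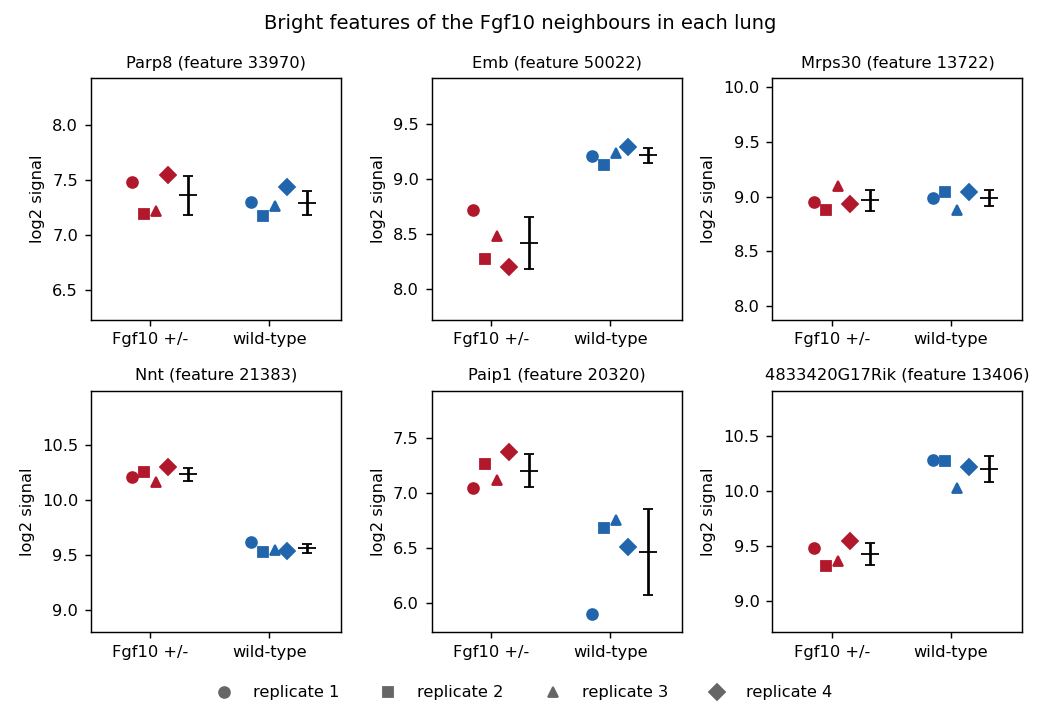
Log2 signal (vertical axis, 2.2 units tall in every panel) of the 6 bright features, 1 panel per gene in chromosome order, with lungs labelled Fgf10 +/- left of wild-type lungs. Points are single lungs, with a marker per replicate number, and bars give the mean and SD of 4 lungs. The groups do not overlap for Emb, Nnt, Paip1 and 4833420G17Rik and overlap for Parp8 and Mrps30.

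RefSeq start windows (GRCm38.p6, 250 bases before to 50 after a gene start) were found for 7 of the 8 genes, all but Nnt. Those of 3 genes with a gap between the groups are printed to show how unlike they are, with matches to CCGGAA, the core letters read by ETS factors such as the FGF-induced ETV proteins, on either strand in capitals. Overlapping matches run together, so TTCCGGAA holds 2. The motif was chosen after these windows had been read.
4833420G17Rik, chr13:119462509-119462808, + strand: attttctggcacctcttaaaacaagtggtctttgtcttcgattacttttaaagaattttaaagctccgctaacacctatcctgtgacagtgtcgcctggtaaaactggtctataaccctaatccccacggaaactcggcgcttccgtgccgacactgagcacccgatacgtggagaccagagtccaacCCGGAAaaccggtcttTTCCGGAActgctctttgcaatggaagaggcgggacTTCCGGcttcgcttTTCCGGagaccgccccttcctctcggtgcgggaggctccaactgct
Paip1, chr13:119428350-119428649, + strand: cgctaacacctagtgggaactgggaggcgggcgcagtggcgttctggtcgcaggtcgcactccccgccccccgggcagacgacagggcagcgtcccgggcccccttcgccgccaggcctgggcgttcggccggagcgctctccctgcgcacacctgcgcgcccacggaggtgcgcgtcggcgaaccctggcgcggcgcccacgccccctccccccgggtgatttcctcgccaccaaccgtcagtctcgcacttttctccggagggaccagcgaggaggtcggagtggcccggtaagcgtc
Emb, chr13:117220323-117220622, + strand: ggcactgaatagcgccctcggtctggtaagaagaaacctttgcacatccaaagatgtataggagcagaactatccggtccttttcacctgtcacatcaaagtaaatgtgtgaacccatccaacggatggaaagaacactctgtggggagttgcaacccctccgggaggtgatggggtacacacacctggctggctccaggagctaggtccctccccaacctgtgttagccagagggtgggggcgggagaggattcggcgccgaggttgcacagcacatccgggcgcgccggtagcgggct

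The 4833420G17Rik window held 5 matches, of which 2 were forward and 3 reverse. Of all 32851 windows, which include several per gene, 14.9% held at least 1 match and 12 held 5 or more. Nothing is read from how rare 5 matches are, because the motif was chosen after the windows had been read. The Emb window and both Paip1 windows held 0, and Mrps30, whose signal showed no gap, held 1. The Paip1 window shown had 73.3% G and C with 38 CpG pairs, Emb had 57.7% with 14, and 4833420G17Rik had 52.3% with 20, where the median window had 52.7% and 7. A match is a run of letters and was not tested as a binding site in these lungs.

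Differences in opposite directions on neighbouring genes can also be read within an array, on the brightest feature of each gene. Any scaling of the whole array cancels there, although the arrays already have the same distribution. The shifts restate the differences given above and add no separate evidence. The Nnt signal minus the 4833420G17Rik signal was 0.73, 0.94, 0.81 and 0.77 in the lungs labelled Fgf10 +/- and -0.65, -0.74, -0.48 and -0.69 in the wild-type lungs. The shift between the groups was 1.45, and the part of the probes in it was not tested. The same shift was 1.52 for Paip1 against 4833420G17Rik, 0.70 for Nnt against Mrps30 and -0.78 for Emb against Mrps30. For Paip1 it rests on feature 20320, while feature 43091 leaned the other way (-0.43).

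AF067061 and Isl1 had no feature whose mean reached the array median of 3.47. AF067061 has no role given here. Its feature 24050 had 2.84, 2.96, 2.57 and 2.53 in the lungs labelled Fgf10 +/- against 3.45, 3.64, 3.10 and 3.47 in the wild-type lungs, with no overlap and a difference of -0.69 (SE 0.16). Its feature 43709 had 2.06, 2.54, 1.96 and 2.30 in the lungs labelled Fgf10 +/- against 3.55, 2.91, 2.25 and 2.98 in the wild-type lungs, with overlap and a difference of -0.70 (SE 0.27). The features moved together across arrays (r = 0.81). Signals this close to the floor are compressed by an unknown amount.

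Isl1 encodes a LIM-homeodomain transcription factor of heart progenitors, motor neurons and pancreatic islets. All 10 of its features were dim, with means from 2.07 to 3.09, and 3 had a higher mean in the lungs labelled Fgf10 +/- while 7 had a lower one. Their differences ran from -0.64 to 1.20. The value at the upper end came from feature 4685, where replicate 3 of the lungs labelled Fgf10 +/- had 6.89 and the other 3 had 3.53, 2.38 and 1.95, against 2.27 to 2.65 in the wild-type lungs. Without that replicate its difference was 0.13. The median r between Isl1 features was -0.14, so features of this gene shared no pattern across lungs. The 10 features of Fgf10, well above the floor, had a median r of 0.76 and a spread between features of 0.20 (SD within an array) against 0.66 for Isl1. Averaged over 10 features, Isl1 was at 2.55 ± 0.24 in lungs labelled Fgf10 +/- and 2.47 ± 0.03 in wild-type lungs (SD, n = 4 each).

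Of the 22 features, 6 had groups that did not overlap, 3 higher (Nnt 21383, Paip1 20320 and Isl1 6503) and 3 lower (Emb 50022, 4833420G17Rik 13406 and AF067061 24050). Over all 31425 named features with complete values this held for 7.03%, with 2.99% higher and 4.03% lower in the lungs labelled Fgf10 +/-. Among the 6 bright features, those with a mean of 6.61 or more, it held for 4, where 11.7% of all 12510 bright features did so. A difference of 1.5-fold or more was found for the same 4 of 6 bright features, against 3.69% of all bright ones. Among the 13 dim features, those with a mean below 3.47, 6 differed by 1.5-fold or more, against 11.3% of all 10701 dim ones. Nothing is read from these shares, because this comparison had a part in choosing the genes.

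**Figure D3:**
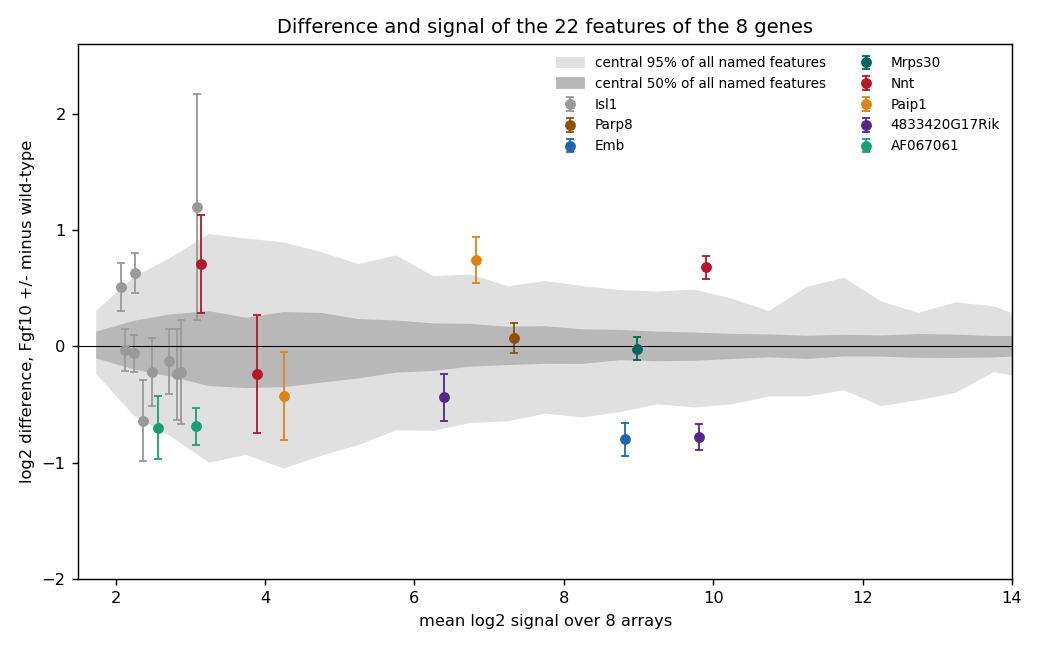
Log2 difference, Fgf10 +/- minus wild-type (vertical axis, bars are limma standard errors), against mean log2 signal over 8 arrays (horizontal axis) for the 22 features. Dark and light grey bands hold the central 50% and 95% of all named features in bins of 0.5 log2 units. The bright features of Nnt, Paip1, Emb and 4833420G17Rik lie outside the light band, and those of Mrps30 and Parp8 lie in the dark one. The dim Isl1 features 4685 (1.2), 3050 (0.63) and 41371 (-0.64) also pass the 95% limits of their bins.

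Across the whole table limma called 0 of 31425 features at an adjusted p of 0.05 (0%). An unadjusted p under 0.05 was found for 3276 of the 31425, 1433 higher and 1843 lower. Calls and counts for other genes are set against that background. The table holds 47 further genes within 10 Mb of Fgf10, with 69 features, and none of those was called by limma. At an unadjusted p under 0.05 there were 5. The groups did not overlap for 5, all higher in the lungs labelled Fgf10 +/-, or 7.25% of these features. Over all features the groups did not overlap for 2.99% in that direction and 7.03% in either. The median difference of the 69 features was 0.00, the same as over all named features. These summaries count features, not genes. Arl15 has more of the features than any other gene, with differences from -0.26 to -0.02.

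The 5 neighbours with the smallest p, none past the test, were Itga1, Ankrd55, Hspb3, Ccno and Il31ra. Itga1, a collagen-binding integrin chain, had 9.48, 9.68, 9.53 and 9.85 in the lungs labelled Fgf10 +/- against 9.06, 9.40, 8.92 and 9.25 in the wild-type lungs. The groups do not overlap, and the difference was 0.48 (limma adjusted p = 0.311). With a variance trend and robust settings it was the 1 call among these neighbours (limma adjusted p = 0.039). The same setting called 539 of all 31425 named features, so nothing particular to the region is read from that call. A second Itga1 feature differed by 0.26. Ccno, a cyclin-like gene of multiciliated cells, had 6.75, 7.20, 7.38 and 6.77 in the lungs labelled Fgf10 +/- against 8.60, 7.34, 8.24 and 7.18 in the wild-type lungs, with overlap and a difference of -0.81 (limma adjusted p = 0.455). The remaining 3 were dim, with differences of 0.43 (Ankrd55), -1.06 (Hspb3) and 0.73 (Il31ra).

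**Figure D4:**
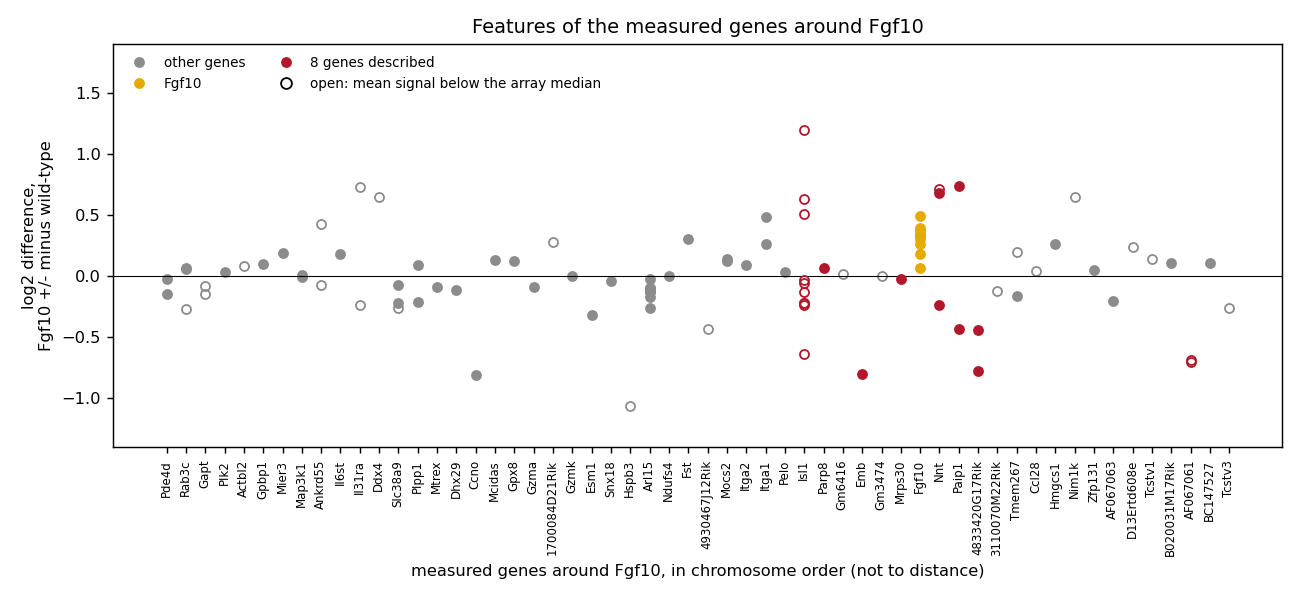
Log2 difference, Fgf10 +/- minus wild-type (vertical axis), of every feature of the measured genes within 10 Mb of Fgf10, in chromosome order with equal steps (horizontal axis). Filled points have a mean signal at or above the array median and open points lie below it. The bright features of Nnt (0.68) and Paip1 (0.74) lie above 0 and those of Emb (-0.80) and 4833420G17Rik (-0.78) below it, while the filled points of lower signal for Nnt, Paip1 and 4833420G17Rik are at -0.24, -0.43 and -0.44. Mrps30 is at -0.02 and the 10 Fgf10 features run from 0.07 to 0.49.

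Genes that work with Nnt, Mrps30, Paip1, Emb, Parp8 and Isl1, or share their family, were listed by name and showed no call in limma. The list for Nnt, mitochondrial NADPH sources and the peroxide defence that spends NADPH, had 18 genes with 35 features and a median difference of -0.01. It held 1 feature at an unadjusted p under 0.05, and the groups overlap on every feature. Sod2, the mitochondrial superoxide dismutase, had 11.79, 11.60, 11.75 and 11.51 in the lungs labelled Fgf10 +/- against 12.05, 11.93, 11.96 and 11.76 in the wild-type lungs, a difference of -0.26 with overlap (limma adjusted p = 0.491). Txnrd2, the mitochondrial thioredoxin reductase, differed by -0.33 (limma adjusted p = 0.518) and its groups overlap. The other leaders, Glrx2 (-0.43), a mitochondrial glutaredoxin, and Me3 (0.56), a mitochondrial malic enzyme, were read on dim features.

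Mitochondrial ribosomal proteins, the family of Mrps30, had 75 genes with 125 features and a median difference of 0.04. None was called, and 3 had an unadjusted p under 0.05. The groups did not overlap for 5, all higher, or 4% of these features, against 2.99% of all in that direction and 7.03% in either. Mrps14 had 9.29, 9.30, 9.33 and 9.28 in the lungs labelled Fgf10 +/- against 8.98, 8.83, 9.21 and 9.09 in the wild-type lungs (difference 0.27, limma adjusted p = 0.465). The other leaders were Mrpl41 (0.66), Mrps5 (0.30) and Mrpl35 (0.39), whose groups overlap.

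For Paip1, 16 partners in cap-dependent translation had 23 features, a median of 0.02 and 1 feature at an unadjusted p under 0.05. The groups did not overlap for 3, all lower, or 13% of these features, against 4.03% of all in that direction. The leaders were the initiation factor genes Eif4b (-0.31, limma adjusted p = 0.389) and Eif4g2 (0.26, limma adjusted p = 0.524). For Emb, 6 genes of monocarboxylate transporters and related glycoproteins had 9 features, a median of -0.17 and 0 at an unadjusted p under 0.05. On all of these features the groups overlap. Slc16a3, a lactate exporter, differed by -0.37 and so did Slc16a7, the partner transporter of embigin, on a dim feature. For Parp8, 14 other ADP-ribosyltransferase genes had 19 features and a median of -0.14. There 3 had an unadjusted p under 0.05, led by Parp6 (-0.81, limma adjusted p = 0.409) and Tnks (0.34, limma adjusted p = 0.421). The groups did not overlap for 1 higher and 1 lower feature, or 10.5% against 7.03% of all in either direction.

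For Isl1, 13 measured partners and heart progenitor factors had 16 features and a median of -0.10. At an unadjusted p under 0.05 there were 2, both lower with no overlap. That is 12.5% of these features, where 4.03% of all had no overlap in that direction and 7.03% in either. Tbx20, a T-box factor of the heart, had 3.31, 3.06, 3.57 and 3.56 in the lungs labelled Fgf10 +/- against 5.53, 5.41, 4.81 and 4.34 in the wild-type lungs (difference -1.65, limma adjusted p = 0.148). It was called with a variance trend and robust settings (limma adjusted p = 0.018), a setting that called 539 of all 31425 named features. Nkx2-5, a homeobox factor of the heart, differed by -1.08 (limma adjusted p = 0.26). All 12 cardiac muscle markers had a lower mean beside these genes, with list averages of 8.36 to 8.86 in the lungs labelled Fgf10 +/- and 9.09 to 9.51 in the wild-type lungs, and their part in the result was not tested.

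Of the other marker lists, those of lung epithelium and proliferation also moved with the groups. List averages overlapped for neuroendocrine cells and neurons (difference 0.01), erythroid cells and leukocytes (0.14), cartilage and fat (-0.8), and skeletal muscle (-1.1). On the cartilage and fat list wild-type replicate 4 was at 6.53, and 5 of its 10 markers had means below the array median. So did 4 of the 9 measured markers of neuroendocrine cells and neurons. The 10 lung epithelial markers all had means above the array median, with averages of 11.90 to 12.07 in the lungs labelled Fgf10 +/- and 12.30 to 12.56 in the wild-type lungs. All 9 measured proliferation markers had a higher mean, with averages of 8.95 to 9.04 in the lungs labelled Fgf10 +/- and 8.13 to 8.55 in the wild-type lungs. In whole lungs, fewer cells of a type and less RNA per cell cannot be told apart, and the part of either shift in the differences of Nnt, Paip1, Emb and 4833420G17Rik was not tested. Wild-type replicate 4 stood apart, at 7.68 for skeletal muscle markers, of which Myh3, Myh4 and Mylpf were below the array median, where the other lungs had 3.86 to 4.43. Without it the differences were 0.67 for Nnt, 0.76 for Paip1, -0.78 for Emb and -0.77 for 4833420G17Rik on their bright features. The mean of 3 Y-linked genes was 4.91 and 5.68 in replicates 2 and 4 of the lungs labelled Fgf10 +/-, 5.08 in wild-type replicate 2 and at most 3.03 elsewhere, and with that level as a covariate the Nnt difference was 0.67.

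Over the 8 arrays, the features of other genes most like the bright Nnt feature were those of the linker histone gene H1f5 (Pearson r = 0.981), Igf1 (0.975 and 0.973, on separate features), Ncbp1 (0.974) and Ccsap (0.970). The most opposite were Pla2g1b (-0.994), Flcn (-0.988), Bex2 (-0.988), Rbpjl (-0.981) and Napsa (-0.981). Among the features of the 8 genes, Emb (-0.955), 4833420G17Rik 13406 (-0.951) and the dim AF067061 24050 (-0.874) were the most opposite, and the dim Isl1 3050 (0.809) and Paip1 20320 (0.798) were the most like. These values include the gap between the groups, and 356 features of other genes (1.13%) reached an absolute r of 0.9. Of these 287 were bright, or 2.29% of the bright features of other genes. In deviations from the group means, r with Nnt was -0.55 for Emb, 0.37 for 4833420G17Rik, -0.29 for Paip1, -0.54 for Mrps30 and 0.36 for Parp8.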

How the data were processed

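The deposited table holds log2 signals of 62976 features on 8 Cy3 arrays. The authors' log2 scale (1.51 to 15.99) and a quantile normalization were read from the values, since sorted arrays differed by no more than 0.0042. The submitters' processing notes name limma. Background correction, flags and genome build are not stated in the labels.

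Features were named from the platform annotation (31465 with 1 symbol, 0 with several, 31511 with none), and symbols were updated by accession through RefSeq (GRCm38.p6), matching 29036 features. That table served for names and gene order only. It does not list NM_008710 for Nnt, whose features were matched by symbol. Leaving out features with a blank gave 31425 features of 20842 genes.

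Groups came from the titles. Nothing says which pups shared a litter, so the lungs of a group may not be independent of each other. Part of the spread may also be technical. The fit was limma 3.58.1 in R 4.3.3 (group only, eBayes, two-sided, Benjamini-Hochberg over all 31425 features, threshold 0.05), with moderated standard errors. Precision is limited by 4 arrays per group. On simulated data with this residual spread it recovered 43 of 100 features at a log2 change of 1 and 79 of 100 at 2. False calls were 5 of 127. Changed features were drawn at random from all named features, bright (median within-group SD 0.16) and dim (0.48). The rates are therefore not those of bright features, and no change below 1 was simulated.

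The genes and lists were chosen with earlier results of these data known. Named were all features of the 8 genes, the 5 neighbours with the smallest p, 4 leaders each of the NADPH and mitochondrial ribosome lists, 2 of each other list, and the 5 features most like and most opposite to Nnt. Alternatives covered feature summaries, scalings, filters, variance models, blocks, a Y-linked covariate and left-out arrays. A pseudocount did not apply to log values. Figures were drawn with matplotlib 3.10.9.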

Additional observations from a re-analysis of the deposited data

Results flagged for a closer look

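Of 88 groups of 4 lungs examined, over the named features of the 8 genes, their neighbours and the related lists, 1 held a lung far from the others. Isl1 feature 17110 was at 2.57 in wild-type replicate 4, while the other 3 wild-type lungs had 2.16 to 2.23. Chance alone gives about 1 such lung in 20 groups, and the feature is at the array floor.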

How the results depend on the processing

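The Nnt difference on its bright feature stayed between 0.66 and 0.70 with each replicate left out in turn, was 0.69 with wild-type replicate 4 and replicate 3 of the lungs labelled Fgf10 +/- both left out (an alternative added after seeing the data), and was 0.38 only when all Nnt features were averaged, which brings in 2 features of low signal. The r of H1f5 with Nnt was 0.864 against that average. The number of the other 21 features with a higher mean in the lungs labelled Fgf10 +/- was 6, and 6 to 9 with each replicate left out, the signs that changed being those of features with differences from -0.24 to -0.02. Limma's 0 calls over all features became 27 or 321 with features below the 25th or 50th percentile of signal left out, 539 with the trended, robust variance model, and ranged from 0 to 1 with each replicate left out; the 1 call, without wild-type replicate 4, was Sgo2a (2.32, adjusted p = 0.0192). The cause was not tested. Calls among the neighbours and among the related lists were 0 in each setting run except the variance trend, with 1 each (Itga1 and Tbx20). A replicate block gave 0 calls and an Nnt difference of 0.68. Deviations of same-numbered lungs correlated at 0.36, 0.01, 0.10 and 0.37. Wild-type lungs of the same number were the best match for replicates 1 and 4 of those labelled Fgf10 +/-. For replicates 2 and 3 it was wild-type replicate 4. These values do not settle whether the numbers pair the lungs, and the main fit did not pair them. Single lungs moved some differences by over 1.5 times. Without replicate 3 of the lungs labelled Fgf10 +/- those of Isl1 4685, Nnt 58427, Nnt 33078 and Paip1 43091 were 0.13, 0.42, 0.11 and -0.12, without replicate 2 those of Isl1 6503 and Il31ra were 0.32 and 0.41, and without replicate 4 that of Txnrd2 was -0.21. Without wild-type replicate 1 those of Isl1 41371 and Slc16a7 were -0.27 and -0.25, and without wild-type replicate 4 that of Hspb3 was -0.69. With each lung left out, ranges were 0.13 to 1.78 for Isl1 4685, -0.81 to -0.27 for Isl1 41371, 0.42 to 1.04 for Nnt 58427, -0.67 to 0.11 for Nnt 33078, -0.60 to -0.12 for Paip1 43091, 0.41 to 0.88 for Il31ra, -1.39 to -0.69 for Hspb3 and -0.61 to -0.25 for Slc16a3. Signal near the floor limits what can be read from AF067061, Isl1 and Nnt feature 58427.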
